A study of Homo sapiens with 6 samples.

Results

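The 10 genes described here write, read or erase DNA methylation or open chromatin for it, or form Polycomb repressive complex 2 (PRC2). They were picked by symbol out of the 60676 rows of the expression table. All 10 were found once and all 10 passed the filter on low counts. RNA sequencing had been done on NCI-H226, an established human cell line labelled as mesothelioma of the pleura and grown in DMEM with 10% FBS. The cells had been given the vehicle DMSO (3 libraries, replicates 1, 2 and 3) or 500 nM of HC278, also written HC31278A or HC-31278 in the labels (3 libraries, replicates 1, 2 and 6), in both cases for 24 h. The series title names HC278 as a degrader of TEAD, the DNA-binding partner of the co-activator YAP1, and the comparison asks which transcripts differ under it. This is 1 cell line, and the labels do not say whether the replicates are independent cultures. The p-values below therefore cover the spread among 6 libraries, part or all of which may be technical.

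DNA methylation at CpG sites is copied after replication: UHRF1 binds half-methylated DNA and brings in DNMT1, the maintenance methyltransferase, while the remodeller HELLS (LSH) opens chromatin for the process. DNMT3A and DNMT3B set new methylation, and TET3 oxidises methylcytosine on the way to its removal. PRC2 places the repressive methyl marks on lysine 27 of histone H3. Its catalytic subunit is either EZH2, which is tied to dividing cells, or EZH1, which is also found in resting cells, and SUZ12 and EED are needed for either to work. UHRF1, DNMT1, HELLS and EZH2 are textbook targets of the E2F factors that switch on genes for S phase.

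The promoters of the 4 genes that passed the test below (UHRF1, HELLS, DNMT1 and EZH2) are shown first, since textbooks place them under the same factors, with that of SUZ12, which holds the same kind of motif and did not pass. Each line gives the 250 bases before a RefSeq start on GRCh38.p14, 5′ to 3′ on the strand of the gene, with E2F-like motifs in capitals. The UHRF1 window is chr19:4909251-4909500 (plus strand), HELLS chr10:94545538-94545787 (plus), SUZ12 chr17:31936757-31937006 (plus), DNMT1 chr19:10194954-10195203 (minus) and EZH2 chr7:148884292-148884541 (minus).
UHRF1: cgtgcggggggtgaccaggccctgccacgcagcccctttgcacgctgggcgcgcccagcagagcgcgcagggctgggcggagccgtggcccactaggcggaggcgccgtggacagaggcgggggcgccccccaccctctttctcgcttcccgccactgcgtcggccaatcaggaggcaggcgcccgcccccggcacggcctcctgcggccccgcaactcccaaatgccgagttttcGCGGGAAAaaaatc
HELLS: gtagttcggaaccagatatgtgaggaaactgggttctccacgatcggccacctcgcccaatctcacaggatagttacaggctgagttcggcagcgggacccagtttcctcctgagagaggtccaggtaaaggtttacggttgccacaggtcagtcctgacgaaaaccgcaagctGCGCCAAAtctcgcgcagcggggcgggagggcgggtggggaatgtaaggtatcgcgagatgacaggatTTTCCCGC
SUZ12: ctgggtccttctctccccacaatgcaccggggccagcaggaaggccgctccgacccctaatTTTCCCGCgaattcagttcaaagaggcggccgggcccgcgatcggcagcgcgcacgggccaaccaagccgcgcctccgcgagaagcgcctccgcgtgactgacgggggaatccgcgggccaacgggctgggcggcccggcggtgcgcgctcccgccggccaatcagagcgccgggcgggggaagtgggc
DNMT1: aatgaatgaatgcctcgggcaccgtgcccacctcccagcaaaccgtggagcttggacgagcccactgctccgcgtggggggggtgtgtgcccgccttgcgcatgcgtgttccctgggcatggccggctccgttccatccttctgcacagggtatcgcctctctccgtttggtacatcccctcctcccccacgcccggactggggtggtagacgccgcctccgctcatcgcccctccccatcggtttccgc
EZH2: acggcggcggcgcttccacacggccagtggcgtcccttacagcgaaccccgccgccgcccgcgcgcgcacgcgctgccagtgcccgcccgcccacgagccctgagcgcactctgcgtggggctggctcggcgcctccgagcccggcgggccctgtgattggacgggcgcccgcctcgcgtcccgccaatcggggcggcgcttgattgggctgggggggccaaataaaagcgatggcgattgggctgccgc

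The motifs searched on both strands were TTTCCCGC, TTTGGCGC and TTTCGCGC, which can overlap each other. In UHRF1 a match ended 6 bases before this start, and another of its 3 RefSeq starts had a match 152 bases upstream. HELLS held 2 matches, 68 bases upstream of the start and directly against it. SUZ12 held 1 match, 181 bases upstream. No window of the other 7 genes held one, which says only that these letters are not in these windows. A match was thus present for 3 of the 10 genes, against 4.76% of the 10774 tested genes that have a window, and for 8 of the 13 S-phase genes with one. The TEAD-like letters GGAATG, which are short, occurred in 1 of the 10 genes (HELLS) and in 13.1% of the tested genes, and the letters TTTGAA in 1 (SUZ12) and 12% of the tested genes. For the UHRF1 window shown, the bases just after the start were found in an annotated transcript of the gene (GENCODE release 29). They were not found for the second UHRF1 window with a match, for HELLS or for SUZ12. A match is a description of the letters and not a binding site.

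A library held 30486316 to 33181814 counts in genes. HC278 replicate 6 stood apart from HC278 replicates 1 and 2, and its difference from them rose with gene model length: the median log2 difference was -0.65 over the 3878 tested genes with the shortest models and 0.53 over the 3878 with the longest. DMSO replicate 3 differed from DMSO replicates 1 and 2 the same way to a smaller degree (-0.27 and 0.20). Results that rest on these libraries are given with and without them. Of 8 mesothelial markers, 7 exceeded 1 CPM in at least 1 library, while KRT5 was at or near 0. Their summed level was 995 to 1426 CPM with DMSO and 1643 to 2848 CPM with HC278, most of it KRT19, which did not pass (log2 0.92, edgeR adjusted p = 0.0831). CALB2, UPK3B and ITLN1 passed as higher, MSLN (log2 0.63), WT1 (-0.27) and PDPN (-0.29) did not pass, and the part of these markers in the results below was not tested. All 4 squamous and all 3 lung adenocarcinoma markers stayed below 1 CPM in all libraries, although NAPSA of the latter passed as higher (log2 2.03, adjusted p = 0.0295). Of 4 immune markers, PTPRC and CD3E were at or near 0, while CD68 (37.1 to 38.1 CPM with DMSO, 61.1 to 75.6 CPM with HC278, log2 0.91, edgeR adjusted p = 0.0100) and CD14 (log2 1.33, 0.0322) passed as higher. The 3 endothelial markers summed to at most 1.70 CPM and the 4 fibroblast markers to at most 4.88 CPM in a library, and none of those tested passed. Among the transcripts of the TEAD family, TEAD4 passed as lower (log2 -0.74, edgeR adjusted p = 0.04999) and TEAD1, TEAD2 and TEAD3 did not pass. Levels of TEAD protein, the stated target, were not analysed here.

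Transcripts of the maintenance machinery and of EZH2 were lower under HC278. UHRF1, HELLS, EZH2 and DNMT1 passed the test, with log2 fold changes from -1.86 to -0.88, and 0 of the 10 genes passed as higher. DNMT3A, DNMT3B, TET3, EZH1, SUZ12 and EED did not pass. The test was edgeR's quasi-likelihood test with Benjamini-Hochberg adjustment over 15510 genes, and a gene passed at an adjusted p under 0.05. By that rule 4 of 10 genes were called lower, against 5.38% of all tested genes, and 0 were called higher, against 5.4%. At an unadjusted p under 0.05 edgeR had 6 lower and 0 higher, against 1980 and 2135 of the 15510 tested genes. DESeq2 also called 4 lower and 0 higher, against 9.37% and 8.79% of all genes, and limma-voom called 4 and 0, against 5.56% and 5.38%. In either direction edgeR called 10.8% of all genes. The median log2 fold change was -0.54 over the 10 genes and 0.05 over all tested genes. In bulk RNA, fewer cells in a given stage of the cell cycle and less RNA per cell cannot be told apart.

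**Figure D1:**
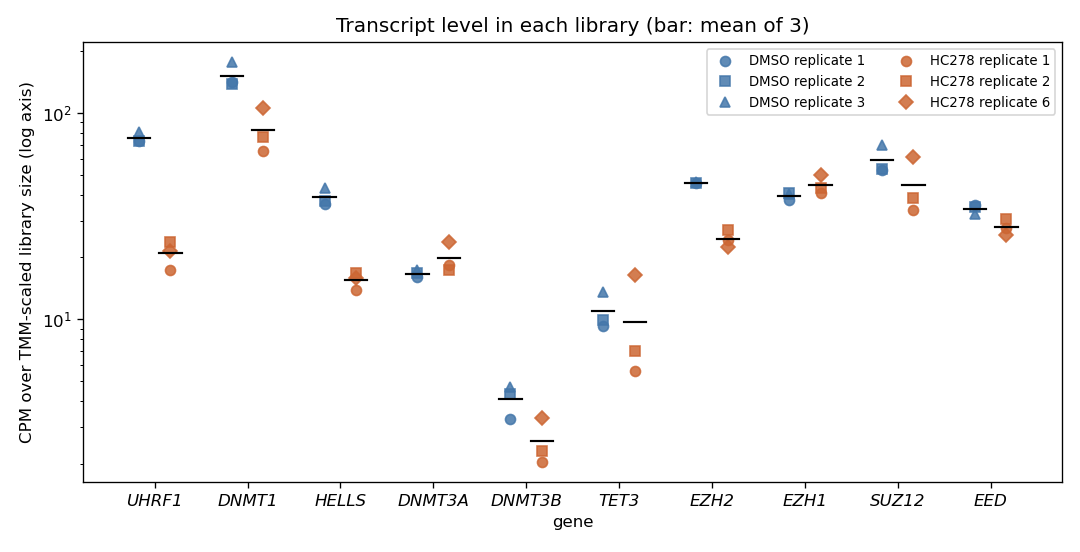
Level of each gene in each library, as CPM over the TMM-scaled library size on a log axis; markers show the replicate, colours the group and bars the mean of 3 libraries. UHRF1, HELLS, EZH2 and DNMT1 have all HC278 libraries below all DMSO libraries, while in TET3 and SUZ12 HC278 replicate 6 lies among or above the DMSO libraries.

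Among the maintenance genes UHRF1 showed the largest difference of the 10. UHRF1 (ENSG00000276043) spans bases 4903080 to 4962154 of chromosome 19, plus strand, in hg38. Its level was 72.9, 73.6 and 80.7 CPM in DMSO replicates 1, 2 and 3, and 17.4, 23.8 and 21.4 CPM in HC278 replicates 1, 2 and 6. The HC278 libraries sat close together and far below the DMSO libraries. The means were 75.7 ± 4.32 and 20.9 ± 3.22 CPM (SD, n = 3), or 27.6% of the DMSO level, a log2 fold change of -1.86 (SE 0.15, edgeR adjusted p = 0.00393). Of all tested genes, 0.464% had a log2 fold change this low or lower. The value ranged from -1.97 to -1.68 over 18 other settings and passed in 17. It missed the threshold without DMSO replicate 2 (log2 -1.89, edgeR adjusted p = 0.0502), a fit in which no gene was called at all.

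HELLS is a helicase of the SNF2 family that is needed for normal methylation of repeats. The table places it on chromosome 10 at 94501434 to 94613905, plus strand (ENSG00000119969). It was at 36.3, 37.7 and 43.5 CPM with DMSO and at 14.0, 16.7 and 15.8 CPM with HC278, with no overlap between the groups. The means were 39.1 ± 3.80 and 15.5 ± 1.42 CPM (SD, n = 3; log2 -1.34, SE 0.13, edgeR adjusted p = 0.00530). This gene model overlaps TBC1D12 on the same strand, whose counts equal 41.6% of those of HELLS, so the reads of the 2 genes could be shared. TBC1D12 itself did not pass (log2 -0.41, SE 0.38, edgeR adjusted p = 0.559). As for UHRF1, the HELLS call was lost only without DMSO replicate 2 (log2 -1.37, edgeR adjusted p = 0.0530), among 18 other settings with values from -1.40 to -1.19.

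DNMT1, the most abundant of the 10 by CPM, is on chromosome 19 at 10133345 to 10231286, minus strand (ENSG00000130816). With DMSO it reached 141, 139 and 176 CPM, and in HC278 replicates 1, 2 and 6 it was at 65.7, 76.5 and 106 CPM. HC278 replicate 6 was the closest of its group to the DMSO libraries and DMSO replicate 3 the farthest from HC278. The means were 152 ± 20.8 and 82.7 ± 20.8 CPM (SD, n = 3), and the difference passed narrowly (log2 -0.88, SE 0.21, edgeR adjusted p = 0.0490). Without HC278 replicate 6 it was -1.10 (edgeR adjusted p = 0.00291), and with the length trend taken out it was -0.89 (edgeR adjusted p = 0.00308). It did not pass in 8 of 18 other settings: without DMSO replicate 1, 2 or 3 (adjusted p = 0.144, 0.146 and 0.184), without HC278 replicate 1 or 2 (0.110 and 0.181), with upper quartile factors (0.0571), by library size alone (0.120) and with the GC trend taken out (0.0602). All 8 kept a negative value, from -0.99 to -0.74. The DNMT1 model overlaps S1PR2 on the same strand, whose counts equal 5.55% of those of DNMT1. S1PR2 itself did not pass (log2 -0.10, SE 0.24, edgeR adjusted p = 0.843).

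UHRF1 was also lower relative to DNMT1 and to PCNA in every HC278 library. By TPM, which divides by model length, UHRF1 stood at 0.983, 1.01 and 0.873 per unit of DNMT1 with DMSO and at 0.505, 0.592 and 0.384 with HC278. Every HC278 library was below every DMSO library (exact permutation test, two-sided, p = 0.1, the smallest that 3 against 3 allows). Relative to PCNA, the replication clamp, the TPM ratio was 0.172, 0.185 and 0.229 with DMSO and 0.0727, 0.104 and 0.150 with HC278. The difference of mean log2 ratios was -0.90, with SDs of 0.22 and 0.52 (exact permutation p = 0.1, the smallest possible). The ratio depends on the gene chosen: PCNA (log2 -0.94) fell less than the median of the 16 S-phase genes listed below (-1.22). Of those genes, CDC6 (-1.93) and CCNE2 (-2.23) fell more than UHRF1 (-1.86), and the rest fell less. HC278 replicate 6 came nearest to the DMSO libraries in the PCNA ratio and was the farthest in the DNMT1 ratio. PCNA has a short model (1403 bases) and DNMT1 a long one, and the part of the length trend of that library in these ratios was not tested.

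Neither de novo methyltransferase passed. DNMT3A (ENSG00000119772, chromosome 2, 25227855 to 25342590, minus strand) was at 16.0, 16.7 and 17.28 CPM with DMSO and at 18.3, 17.30 and 23.8 CPM with HC278. Its groups did not overlap, but by a margin within rounding, and HC278 replicate 6 alone was clearly apart. The log2 fold change was 0.25 (SE 0.15, edgeR adjusted p = 0.365), and it stayed positive and did not pass in any of 18 other settings. DNMT3B (ENSG00000088305, chromosome 20, 32762385 to 32809356, plus strand) was the least abundant of the 10 by CPM, with 58 to 159 counts per library. It had 3.29, 4.35 and 4.70 CPM with DMSO and 2.03, 2.31 and 3.33 CPM with HC278, where HC278 replicate 6 just reached the lowest DMSO library. The difference did not pass (log2 -0.68, SE 0.25, edgeR adjusted p = 0.150). Without HC278 replicate 6 it did, as lower (log2 -0.92, edgeR adjusted p = 0.0167). DNMT1 made up 87.6%, 85.9% and 87.99% of the summed TPM of the 3 methyltransferases with DMSO and 77.4%, 80.1% and 80.01% with HC278, without overlap (exact permutation p = 0.1, the smallest possible).

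TET3 (ENSG00000187605, chromosome 2, 73986404 to 74108176, plus strand) depended most on a single library. It was at 9.33, 9.97 and 13.6 CPM with DMSO, and at 5.64 and 7.04 CPM in HC278 replicates 1 and 2 but 16.4 CPM in HC278 replicate 6. The first 2 HC278 libraries lay below all DMSO libraries and replicate 6 above all of them. With all libraries the log2 fold change was -0.18 (SE 0.42, edgeR adjusted p = 0.840). Without HC278 replicate 6 it was -0.79 (edgeR adjusted p = 0.0250), with DMSO replicate 3 left out as well -0.60 (0.0183), and it turned positive when any of 3 other libraries was dropped: 0.09 (0.924) for HC278 replicate 1, 0.005 (0.997) for HC278 replicate 2 and 0.004 (0.998) for DMSO replicate 3. Its relative TET1 had at most 5 counts in any library and was not tested, and TET2 did not pass (log2 0.31, edgeR adjusted p = 0.750).

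In PRC2, EZH2 fell, while EZH1 did not pass and had a small positive value. EZH2 (ENSG00000106462, chromosome 7, 148807383 to 148884321, minus strand) was at 45.9, 46.0 and 46.2 CPM with DMSO and at 24.3, 26.97 and 22.4 CPM with HC278. The DMSO libraries were almost equal and every HC278 library was far below them. The means were 46.0 ± 0.132 and 24.6 ± 2.27 CPM (SD, n = 3; log2 -0.91, SE 0.11, edgeR adjusted p = 0.00829). The EZH2 call did not hold without DMSO replicate 1, 2 or 3 (edgeR adjusted p = 0.0635, 0.0688 and 0.0590), although the value moved little, with a range from -0.98 to -0.79 over 18 settings. EZH1 (ENSG00000108799, chromosome 17, 42700275 to 42745049, minus strand) was at 38.0, 40.7 and 40.6 CPM with DMSO and at 41.2, 43.4 and 50.3 CPM with HC278. Its HC278 libraries were all slightly above the DMSO libraries, but the difference did not pass (log2 0.18, SE 0.12, edgeR adjusted p = 0.414), nor in any of 18 other settings.

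The share of EZH2 among the 2 catalytic subunits was lower in every HC278 library than in every DMSO library. By TPM, EZH2 made up 65.1%, 63.6% and 63.7% of EZH1 plus EZH2 with DMSO, and 47.7%, 49.0% and 40.8% with HC278. The mean share went from 64.1 ± 0.858% to 45.9 ± 4.40% (SD, n = 3; exact permutation p = 0.1, the smallest possible). On the log2 scale the EZH1 to EZH2 ratio was 1.08 higher under HC278, and the difference between their fitted fold changes lay between 0.90 and 1.18 over all settings tried, with 1.08 once the length trend was taken out. This ratio is formed within each library and so does not depend on the scaling between libraries.

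**Figure D2:**
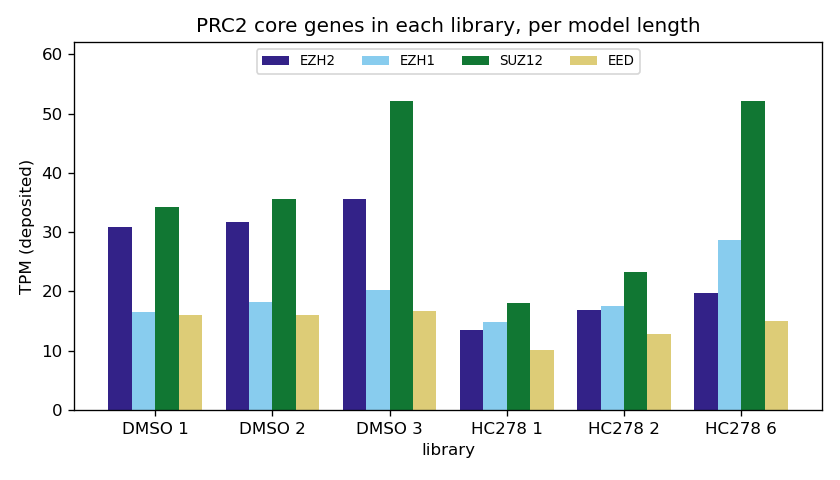
Deposited TPM of EZH2, EZH1, SUZ12 and EED in each library, as bars from 0. EZH2 exceeds EZH1 in the 3 DMSO libraries and is below it in the 3 HC278 libraries, and SUZ12 in HC278 replicate 6 (52.2 TPM) is at the level of DMSO replicate 3 (52.1 TPM).

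The 2 shared core subunits did not pass. SUZ12 (ENSG00000178691, chromosome 17, 31937007 to 32001038, plus strand) was at 53.2, 53.8 and 70.4 CPM with DMSO and at 33.8, 38.8 and 61.6 CPM with HC278. HC278 replicates 1 and 2 lay below all DMSO libraries, and HC278 replicate 6 lay among them. The log2 fold change was -0.40 (SE 0.26, edgeR adjusted p = 0.382), and without HC278 replicate 6 it was -0.71 and passed (edgeR adjusted p = 0.0150). EED (ENSG00000074266, chromosome 11, 86244753 to 86278813, plus strand), which binds the mark that PRC2 makes, was at 35.8, 35.0 and 32.6 CPM with DMSO and at 27.7, 30.8 and 25.7 CPM with HC278. The groups did not overlap, but the difference was small and did not pass (log2 -0.30, SE 0.12, edgeR adjusted p = 0.169). It passed when DMSO replicate 3 and HC278 replicate 6 were both left out (log2 -0.28, edgeR adjusted p = 0.0463), and was -0.10 with the GC trend taken out. In all, 5 of the 10 genes had every HC278 library below every DMSO library and 2 had every one above, against 17.5% and 17% of all tested genes, and 34.6% in either direction.

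The number of calls depended on single libraries. Without HC278 replicate 6, 7 of the 10 genes were called lower and 0 higher, against 20.7% and 19.8% of all tested genes in that fit. With DMSO replicate 3 left out as well, 8 were called lower and 0 higher, against 20.9% and 19.5%. Without DMSO replicate 1, 2 or 3 there were 2, 0 and 2 lower, against 0.625%, 0% and 0.928%, and without HC278 replicate 1 or 2 there were 3 each, against 2.63% and 0.894%. Without DMSO replicate 2, edgeR, the only tool run on this subset, gave 4 of the genes an unadjusted p under 0.05, all lower. In that fit 2864 of the 15979 tested genes had such a p, in either direction. With library weights in limma-voom 8 were lower and 0 higher, against 29.7% and 29.5%, and with the replicate number as a block in edgeR also 8 and 0, against 27.2% and 25.5%.

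Other scalings and filters left 3 or 4 genes lower. The 4 genes passed with DESeq2 size factors (5.44% of all genes called lower), without a filter (2.06%), with a minimum of 10 counts in 3 libraries (5.34%) and with the length trend taken out (9.2%). DNMT1 dropped out with upper quartile factors (4.34%), by library size alone (4.19%) and with the GC trend taken out (7.58%), where UHRF1, HELLS and EZH2 still passed.

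Among the 10 genes, the offset of HC278 replicate 6 did not simply follow model length. Relative to the mean of HC278 replicates 1 and 2, replicate 6 was 1.37 higher in log2 CPM for TET3, which has the longest model of the 10 at 12271 bases. It was 0.42 higher for DNMT3A (12020 bases) and 0.58 higher for DNMT1 (9796 bases), near the median of 0.53 for the longest models. HELLS, with 10150 bases, differed by 0.05. SUZ12 and DNMT3B, at 4706 and 4630 bases, were 0.76 and 0.61 higher, whereas EZH2, at 4522 bases, was at -0.19 and EED, at 6807 bases, at -0.19. With the length trend taken out of all libraries the same 4 genes were called lower: UHRF1 (log2 -1.85), HELLS (-1.31), EZH2 (-0.89) and DNMT1 (-0.89). What sets HC278 replicate 6 apart was not tested.

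**Figure D3:**
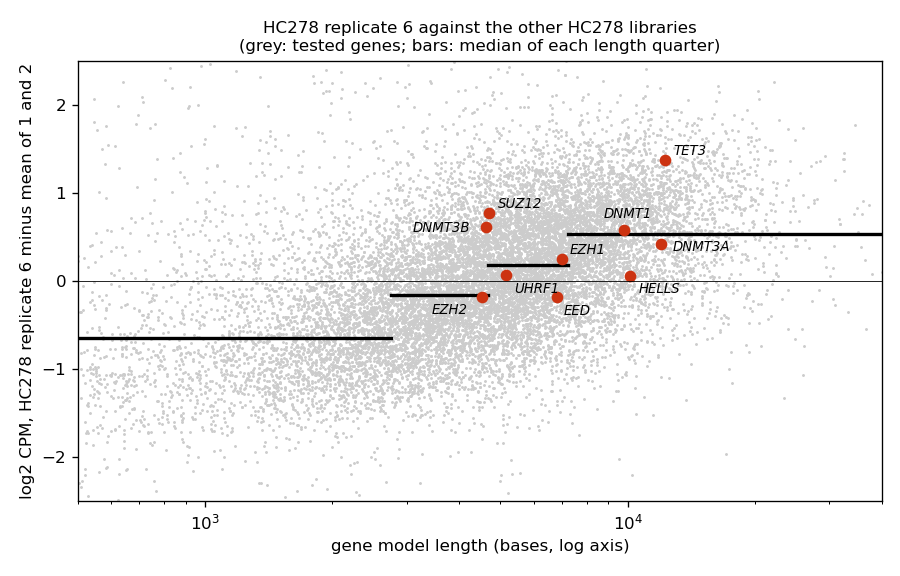
Log2 CPM of HC278 replicate 6 minus the mean of HC278 replicates 1 and 2, against gene model length on a log axis, for the tested genes (grey, 400 outside the plotted range) and the 10 genes (red); bars are medians of 4 classes of model length. The medians climb from -0.65 to 0.53, with TET3, SUZ12 and DNMT3B above the bar of their class and HELLS and EED below.

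Levels per length in the cells given the vehicle DMSO put the maintenance genes and PRC2 well above the de novo enzymes. By TPM with DMSO the order was DNMT1 (50.1 ± 10.8 TPM, SD, n = 3), UHRF1 (47.4 ± 6.31), SUZ12 (40.7 ± 9.89) and EZH2 (32.7 ± 2.52), each overlapping its neighbour in range. Then came EZH1 (18.3 ± 1.87 TPM) and EED (16.2 ± 0.387 TPM), which overlapped each other, and HELLS (12.4 ± 2.16 TPM), which overlapped neither. DNMT3A (4.45 ± 0.4999 TPM) lay below these and above TET3 (2.90 ± 0.842 TPM) and DNMT3B (2.87 ± 0.690 TPM), which were alike within their spread. With HC278, UHRF1 stood at 12.7 ± 4.05 TPM, DNMT1 at 27.3 ± 13.9 TPM, EZH2 at 16.7 ± 3.16 TPM and HELLS at 4.78 ± 1.40 TPM.

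For the lists that follow, the shares to read the counts against are those over all tested genes. These are 5.38% lower and 5.4% higher in edgeR, 9.37% and 8.79% in DESeq2, and 20.7% and 19.8% in edgeR without HC278 replicate 6. At an unadjusted edgeR p under 0.05, 1980 of the 15510 tested genes were lower and 2135 higher. Of 20 tested partners of the methylation machinery, 2 passed as lower, against 5.38%, and 0 as higher (unadjusted edgeR p under 0.05: 4 and 0; DESeq2: 3 and 0; limma-voom: 2 and 0). CDCA7, the zinc-finger partner that recruits HELLS to chromatin, fell from 21.4, 23.2 and 25.4 CPM to 5.40, 7.92 and 7.51 CPM (log2 -1.75, SE 0.18, edgeR adjusted p = 0.00596). PCNA, which also binds DNMT1, fell from 107 ± 10.02 to 55.6 ± 14.5 CPM (SD, n = 3; log2 -0.94, edgeR adjusted p = 0.0445). CDCA7L (log2 -0.40), the methyl-CpG binding genes MBD1 (-0.37), MBD4 (-0.21) and MBD2 (-0.26) and the deubiquitinase USP7 (-0.26) did not pass. MBD4 is overlapped on the opposite strand by IFT122, with 54.5% of its counts. The median of the list was -0.21, and without HC278 replicate 6, 9 were lower, against 20.7% of all genes, and 0 higher. DNMT3L had at most 5 counts in a library and was not tested.

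Of 9 other tested PRC2 subunits, MTF2 alone passed, as lower, against 5.38% of all genes, with 24.6, 25.2 and 28.6 CPM against 14.7, 16.3 and 18.4 CPM (log2 -0.66, SE 0.13, edgeR adjusted p = 0.0308). MTF2 brings PRC2 to CpG islands. EPOP (log2 -0.87, adjusted p = 0.109), PHF19 (log2 -0.73, adjusted p = 0.120) and the histone chaperone RBBP4 (log2 -0.27, adjusted p = 0.143) did not pass in edgeR, and none of the 9 passed as higher (unadjusted p under 0.05: 4 lower and 0 higher; DESeq2: 3 and 0). RBBP4 is overlapped on the opposite strand by SYNC with 71.9% of its counts, and how strand was counted is not stated. The median was -0.27, and 7 were lower and 0 higher without HC278 replicate 6, against 20.7% and 19.8%. Of 7 tested genes of the H3K27 demethylases and the BAP1 complex, taken as 1 list, none passed in either direction in edgeR with all libraries (0 at an unadjusted p under 0.05, 0 in DESeq2, 0 in limma-voom). The median was 0.22. It was -0.21 without HC278 replicate 6, with 1 lower and 0 higher. With DMSO replicate 3 left out as well 2 were lower, against 20.9% of all genes. With the length trend taken out 1 was lower, against 9.2%. The list includes the H3K27 demethylases KDM6A (log2 0.11) and KDM6B (log2 0.43). BAP1, the deubiquitinase that removes the mark of PRC1 and is often lost in mesothelioma, had 0 to 2 counts in every library.

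PRC1, the complex that marks histone H2A, had 2 of 20 tested genes lower and 0 higher, a share of lower calls near the 5.38% over all genes (unadjusted edgeR p under 0.05: 3 and 2; DESeq2: 3 and 0). These were CBX2, from 6.22 ± 0.252 to 3.03 ± 0.2998 CPM (SD, n = 3; log2 -1.04, edgeR adjusted p = 0.0119), and PCGF6 (log2 -0.79, adjusted p = 0.0151). RNF2, the main catalytic subunit, was at -0.45 (adjusted p = 0.107) and BMI1 at -0.43 (0.373), while CBX7 and CBX8 were at 0.32 and 0.48, and none of these 4 passed. Without HC278 replicate 6, 4 genes of PRC1 were lower and 5 higher, close to the 20.7% and 19.8% over all genes. Of 13 genes of H3K9 methylation and heterochromatin, 3 fell, against 5.38% of all genes, and 0 rose (unadjusted: 3 and 0; DESeq2: 3 and 0). There were 4 lower and 2 higher without HC278 replicate 6, against 20.7% and 19.8%. These were the H3K9 methyltransferases SUV39H1 (log2 -1.10, edgeR adjusted p = 0.0425) and SUV39H2 (log2 -0.97, 0.0101), and the heterochromatin protein CBX1 (log2 -0.93, 0.00655). SUV39H2 is overlapped on the opposite strand by DCLRE1C, with 83.2% of its counts, and SETDB1 by CERS2, with 701% of its counts. EHMT1, EHMT2, SETDB1 and TRIM28, of the same list, lay between -0.24 and 0.21 and did not pass.

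Genes of S phase were lower too. Of 16 tested, 14 were lower, against 5.38% of all genes, and 0 higher in edgeR (unadjusted: 16 and 0; DESeq2: 16 and 0), with a median log2 fold change of -1.22. The helicase subunits MCM2, MCM3 and MCM6 had log2 fold changes of -1.25, -1.48 and -1.03, and CDC6, which loads them, of -1.93. Against this median, UHRF1 was lower (-1.86), HELLS close to it (-1.34) and EZH2 and DNMT1 less changed (-0.91 and -0.88). Of 13 E2F and pocket protein genes, 3 were lower, against 5.38%, and 0 higher (unadjusted: 7 and 0; DESeq2: 5 and 0, against 9.37% and 8.79%): E2F1 (log2 -1.495), E2F2 (-1.61) and TFDP1 (-0.73). The part of a lower share of cells in S phase in the results on the 10 genes was not tested. These lists were drawn up with earlier results on these data known, so their counts are a description.

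**Figure D4:**
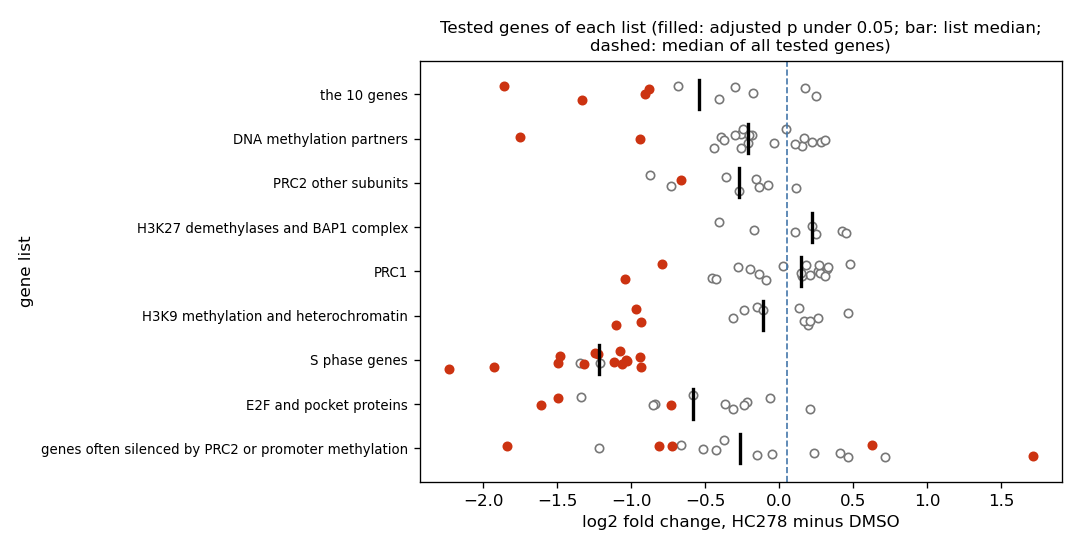
Log2 fold change (HC278 minus DMSO) of each tested gene of the 10 and of 8 lists; filled points have an adjusted p under 0.05, bars are list medians and the dashed line is the median of all tested genes (0.05). The S-phase genes lie to the left with a median of -1.22, the 10 genes spread from -1.86 to 0.25 and PRC1 centres at 0.15.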

How the data were processed

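The table of 60676 genes holds raw read counts per gene as whole numbers, per the file headers. The authors also deposited RPKM and TPM, per the file headers, and a measure named CPM that is a scaled signal over an adjusted library size, since its columns do not all sum to the same total. The submitters' processing notes name build hg38. For aligner, counting program, strand setting and annotation, nothing is given in the sources used here. Libraries came from Trizol RNA and Illumina's stranded mRNA kit, per the labels' protocols. Groups and replicate numbers were read from the sample titles.

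The test was edgeR 4.0.16 under R 4.3.3 (glmQLFit and glmQLFTest, TMM factors, filterByExpr with a minimum count of 10), which kept 15510 genes. Benjamini-Hochberg adjustment ran over all of them, and a gene was called at an adjusted p under 0.05. CPM printed here is over the TMM-scaled library size, and the SE was taken as log2 fold change over root F. In a library 3 counts are 0.0904 to 0.0984 CPM, for counting error only. Model lengths came from the ratio of deposited counts to deposited RPKM, set to GENCODE release 29. Ratios between genes used the deposited TPM, which divide by model length, and an exact permutation test of 3 against 3 libraries. Promoters are RefSeq windows on GRCh38.p14, cut to the 250 bases before a start, and all 10 genes had one.

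The script was tested on simulated data. Alternatives were DESeq2 1.42.0, DESeq2's size factors, scaling by upper quartile or by library size, limma-voom (limma 3.58.1) with and without library weights, 2 other filters, the replicate number as a block, each library left out, DMSO replicate 3 and HC278 replicate 6 left out together, and a loess trend (span 0.5) on length or GC taken out. All 10 genes were named whatever their test, and of each other list up to 8 genes with the smallest adjusted p, with a few further members named after their values were seen, and some list members are not reported here by name. The genes and lists were chosen with earlier results of these data known. No 2 libraries of a group agreed within sampling noise (chi-square per degree of freedom at least 4.02). Figures were drawn with matplotlib 3.10.9.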

Additional observations from a re-analysis of the deposited data

How the results depend on the processing

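Against 4 genes of the 10 called lower, 8 were called with library weights, 8 with the replicate number as a block and 8 without DMSO replicate 3 and HC278 replicate 6 together. These 3 settings are not separate checks, since each reduces or removes the part of the same 2 libraries. The block takes the difference from replicates 1 and 2 alone. The library weights were lowest for HC278 replicate 6 (0.077) and DMSO replicate 3 (0.43). Leaving out 1 library in turn gave 0 to 7. The other 9 settings gave 3 or 4, and 0 were called higher in every one of the 18. Over all genes (835 lower and 837 higher), the counts were 1454 and 1364 with DESeq2, 4613 and 4583 with library weights, 4218 and 3954 with the block, 3274 and 3048 without both libraries, and 1427 and 1264 once the length trend was removed. Without a filter 553 were higher. Leaving out 1 library gave 0 to 3280 lower and 0 to 3133 higher. With 0 calls, 2864 genes had an unadjusted edgeR p under 0.05. The cause of these shifts was not tested. The EZH1 to EZH2 difference of 1.08 and the UHRF1 to PCNA difference of -0.90 kept their sign in every setting run on them, from 0.93 to 1.17 and from -1.16 to -0.64. For EZH1 to EZH2 the values without HC278 replicate 1, 2 or 6 were 1.14, 1.17 and 0.93. For UHRF1 to PCNA those without HC278 replicate 1 or 6 were -0.64 and -1.16. These values moved by less than the HC278 SD (0.26 and 0.52) but by more than the DMSO SD (0.05 and 0.22).

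Replicate numbers 1 and 2 occur in both groups and 3 and 6 in 1 group each, so the block rests on 2 pairs. Deviations from group means correlated at 0.52 for number 1 and 0.18 for number 2 across genes. Differently numbered libraries gave 0.38 (DMSO 1 with HC278 2), 0.33 (DMSO 2 with HC278 1) and 0.69 (DMSO 3 with HC278 6), all above the value for number 2, and nothing in the labels ties the numbers to a shared culture or day. With the block DNMT3B (log2 -0.81), TET3 (-0.61), SUZ12 (-0.56) and EED (-0.28) passed as lower beside the 4 genes, and DNMT3A and EZH1 did not pass. DNMT3B had the lowest depth of the 10 genes, 58 to 159 counts per library.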

Other observations

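Over the 6 libraries, the genes whose centred log2 CPM profile came nearest to that of UHRF1, among 13276 others with a mean of at least 1 CPM, were RFC3 (root mean square difference 0.065), CDCA7 (0.083), BEND3 (0.086), ANKRD1 (0.095) and LINC02709 (0.112). RFC3 is a subunit of the clamp loader, CDCA7 is the partner of HELLS, and ANKRD1 is a standard reporter of YAP activity. For EZH2 the nearest were PARP2 (0.017), POLE3 (0.031), PRIM2 (0.041), NUP35 (0.043) and GEMIN4 (0.045), of which POLE3 and PRIM2 belong to DNA polymerase epsilon and to primase. Among pairs of the 10 genes, DNMT3A and EZH1 were closest (0.080). These distances are over 6 libraries that share 1 contrast and carry no test.

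Germline genes that promoter methylation often silences were at or near 0 counts in both groups at 24 h. Of 24 listed, 9 had no count in any library, 21 had at most 3 in each library, and the highest was 7 counts, of TEX14. Summed over the list, a DMSO library held 12 to 16 counts and an HC278 library 12 to 26, so a change was not detectable at this depth. Of 22 listed genes that PRC2 or promoter methylation often silences, 16 passed the filter on low counts and so were expressed here. CDH1, SFRP2, RARB, SOX17, PRDM1 and RUNX3 were not tested, with at most 17 counts in a library (RARB in HC278 replicate 6). Of the 16 tested, 3 were lower and 2 higher in edgeR, against 5.38% and 5.4% of all genes. At an unadjusted edgeR p under 0.05 there were 7 and 3, against 1980 and 2135 of all 15510 genes. With DESeq2 there were 7 and 2 (9.37% and 8.79% of all genes), and without HC278 replicate 6 there were 8 and 3 (20.7% and 19.8%). The higher ones were CDKN1C, which encodes a CDK inhibitor, from 2.97 ± 0.846 to 9.76 ± 3.08 CPM (SD, n = 3; log2 1.72, adjusted p = 0.0230), and the factor KLF2 (log2 0.63, 0.0480). The lower ones included TIMP3 (log2 -0.72, 0.00910) and RASSF1 (log2 -0.81, 0.0383). None of these named genes passed without DMSO replicate 2, where no gene did, and neither DNA methylation nor H3K27 methylation was analysed here.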
